A study of Mus musculus with 6 samples.

Results

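Saa3, Lcn2, Hp, Lbp and Chil1 are secreted-protein genes of the acute-phase response that were followed here across the cells of the fracture callus. They are 5 of the 52081 genes that all 6 libraries list. They were chosen by their place among the leading genes of inflammatory stromal clusters in these same data, so their levels by cell type are a description without a test, and tests were run only between the genotype labels. Calluses were taken from 12-week-old male mice 14 days after a femoral fracture (14 dpf), dissociated by enzyme digestion and sequenced as single cells with 10x 3′ chemistry, with 3 libraries per group. Control libraries carry the genotype label wt, and the study describes these mice as Piezo1f/f. The other 3 libraries carry the label Col2CreERT; Piezo3-/-, the series text gives Piezo1-/-, and the study describes Col2a1CreERT2; Piezo1f/f mice; they are called libraries labelled knockout. Both groups had floxed Piezo1 and received tamoxifen at 75 mg/kg for 5 days from day 5, and the control mice lacked the Cre. The Cre is made only in cells that use the Col2a1 promoter, chiefly chondrocytes, so most callus cells would keep Piezo1, a mechanically gated cation channel, in either group.

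Acute-phase proteins are best known as proteins that the liver releases into blood when IL-6, IL-1 and TNF act through the transcription factors STAT3, C/EBP and NF-kB. Several of them are also made locally by fibroblasts, macrophages and epithelia at sites of injury, and Saa3 is the serum amyloid A gene of the mouse that is expressed mainly outside the liver. Lipocalin 2 and haptoglobin are also stored in neutrophil granules, whose proteins are made while neutrophils mature in the marrow, so a callus can hold these transcripts from stromal cells and from neutrophils.

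The members lie apart in the genome (GRCm38, GENCODE M21, none overlapping another gene). Saa3 (ENSMUSG00000040026) is at chr7:46711998-46715700 on the minus strand, Lcn2 (ENSMUSG00000026822) at chr2:32384633-32388252 on the minus strand, Hp (ENSMUSG00000031722) at chr8:109575128-109579172 on the minus strand, Lbp (ENSMUSG00000016024) at chr2:158306493-158332852 on the plus strand and Chil1 (ENSMUSG00000064246) at chr1:134182176-134190181 on the plus strand. The promoters shown are those of Saa3 and Chil1, the members whose promoter sequence was at hand and lay mostly outside annotated exons. Each promoter holds a letter match to a factor of the acute-phase response. Each is RefSeq sequence of GRCm38.p6, 5′ to 3′ on the strand of the gene, from 250 to 25 bases before the start, and the capitals mark the match.
Saa3 promoter, chr7:46715701-46715926, minus strand: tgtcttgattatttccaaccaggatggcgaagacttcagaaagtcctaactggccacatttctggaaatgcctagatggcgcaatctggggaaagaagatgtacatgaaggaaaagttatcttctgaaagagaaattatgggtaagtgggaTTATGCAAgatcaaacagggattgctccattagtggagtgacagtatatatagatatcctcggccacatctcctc
Chil1 promoter, chr1:134181906-134182131, plus strand: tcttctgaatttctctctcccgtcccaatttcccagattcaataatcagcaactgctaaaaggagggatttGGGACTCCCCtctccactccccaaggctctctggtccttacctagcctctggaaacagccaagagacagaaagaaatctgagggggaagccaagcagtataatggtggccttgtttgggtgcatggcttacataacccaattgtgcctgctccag
The capitals in Saa3 are the other strand of the C/EBP core TTGCNNAA, 99 to 92 bases before the start, and those in Chil1 fit the NF-kB consensus, 179 to 170 bases before the start. Windows of this length held the C/EBP core in 8.95% and the NF-kB consensus in 3.53% of 32851 RefSeq promoters, both strands searched. The C/EBP core was added after the longer form TTNNGNAAT, held by 9.57% of promoters, gave no match in either, and neither window held the STAT motif TTCNNNGAA (6.4% of promoters). The motifs overlap in what they match, and a match of letters is no measure of binding. RefSeq promoters were at hand for 3 of the 5 genes, and that of Lcn2 is not printed because 197 of its bases lie in annotated exons.

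The libraries held 46944 barcodes and 57626530 to 103784364 unique molecular identifiers (UMIs, counted transcript molecules) each, and 41652 cells were kept. Levels are in CPM, the UMIs of a gene per 1000000 UMIs of all genes, both summed over the cells of a class in a library. Classes were named from marker genes, with clustering done without the 5 genes: 17772 stromal-like cells, 5904 endothelial-like, 5012 neutrophil-like, 4442 macrophage-like, 2487 monocyte-like, 1680 pericyte-like, 1585 osteoclast-like, 1094 lymphocyte-like, 241 erythroid-like and 1435 unnamed. Control library 1 and knockout library 1 stood apart in the depth of stromal-like cells, with a median of 1079 and 1180.5 UMIs per cell against 9184 to 12912 in the others. A stromal-like cluster of few UMIs (median 765) held 1409 and 1051 of their 3196 and 2288 stromal-like cells. Their neutrophil-like cells were the deepest, with a median of 6212 and 5219.5 UMIs against 1795 to 3666 in the others. Neutrophil-like cells were 1.05%, 24.3% and 10.7% of the control and 6.78%, 11.1% and 9.26% of the knockout-labelled libraries, and control library 1 held only 43 of them. Knockout library 3 did not match the male sex given above: Xist was at 578 CPM and 4 Y chromosome genes summed to 0.032, whereas the other 5 libraries had Xist at 0.099 to 0.170 and Y genes at 108 to 209. In chondrocyte-like and hypertrophic chondrocyte (HTC)-like cells Piezo1 was at 69.3, 43.0 and 52.2 CPM in the control libraries and 132, 64.5 and 48.3 in those labelled knockout, but 3′ reads need not cover the deleted exons, so this does not check the labels. Pairs of libraries shared 4 to 36 barcodes, at most 0.383% of the smaller library.

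Saa3, a small acute-phase apolipoprotein, was a transcript of a pair of libraries more than of a cell class. In stromal-like cells it was at 15.7, 8.81 and 8651 CPM in control libraries 1 to 3 and at 2692, 1.28 and 1.30 in knockout libraries 1 to 3. Control library 3 and knockout library 1 were thus far above the other 4, with knockout library 1 at 172 times the next highest, and the genotype groups overlapped: knockout library 1 lay above control libraries 1 and 2, and control library 3 lay above all 3 libraries labelled knockout. The same libraries were the highest pair in 8 of 8 classes and in 15 of 16 stromal clusters with enough cells, so the genotype label and this pattern did not run together. Monocyte-like cells had 2.22, 385 and 537 CPM in the control and 4457, 28.5 and 246 in the knockout-labelled libraries. That was more than in stromal-like cells of the same library in control library 2 and in all 3 libraries labelled knockout. In control library 2 and knockout libraries 2 and 3 few of these monocyte-like cells carried it, as given below. Macrophage-like cells had 5.68, 33.5, 236, 2949, 2.22 and 10.4 in the same order, and neutrophil-like cells had 0, 40.1, 282, 334, 1.18 and 17.6, where the 0 of control library 1 allows up to 9.05. Averaged over libraries the order was stromal-like (1895 ± 3479.6, SD, n = 6), monocyte-like (943 ± 1734), macrophage-like (539 ± 1184) and pericyte-like (326 ± 669.7), and no neighbours in this order differed beyond their spread. Lymphocyte-like cells, which should lack Saa3, had 577 CPM in control library 3 and 254 in knockout library 1 and at most 1.84 elsewhere. Col1a1, a collagen transcript of stromal cells, was found in them at 854 and 3175 CPM in those libraries, against 23971 and 23720 in stromal-like cells. The part of free RNA in the Saa3 of other classes was not tested.

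Lcn2 encodes lipocalin 2, a protein of neutrophil granules that withholds iron from bacteria by binding their siderophores. Its level was by far highest in neutrophil-like cells, at 7286, 8509 and 5567 CPM in the control and 4096, 7415 and 7497 in the knockout-labelled libraries. The genotype groups overlapped, and every neutrophil value lay above every value of the other classes counted above. Within the stromal-like cells, however, an HTC-like cluster described below was in control library 3 above the 4096 of neutrophil-like cells in knockout library 1. That cluster was still below the 5567 of neutrophil-like cells in control library 3 itself. Stromal-like cells had 17.6, 74.1 and 619 in the control and 217, 39.9 and 33.8 in the knockout-labelled libraries. Control library 3 and knockout library 1 were again the highest, though the step from knockout library 1 to the next was only 2.93 times. Within neutrophil-like cells the cluster led by Ngp, Retnlg and S100a9 had the most, at 10339 to 16033 CPM. The cluster led by Camp, Ngp and Elane, genes of immature neutrophils, had 3545 to 8427, and that led by Il1b, Retnlg and Ifitm1, genes of mature neutrophils, had 1252 to 3448. Over classes the order after neutrophil-like cells (6728 ± 1601, n = 6) was stromal-like (167 ± 233), monocyte-like (130.3 ± 99.6) and endothelial-like (67.8 ± 49.1), and only the first step exceeded the spread.

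**Figure D1:**
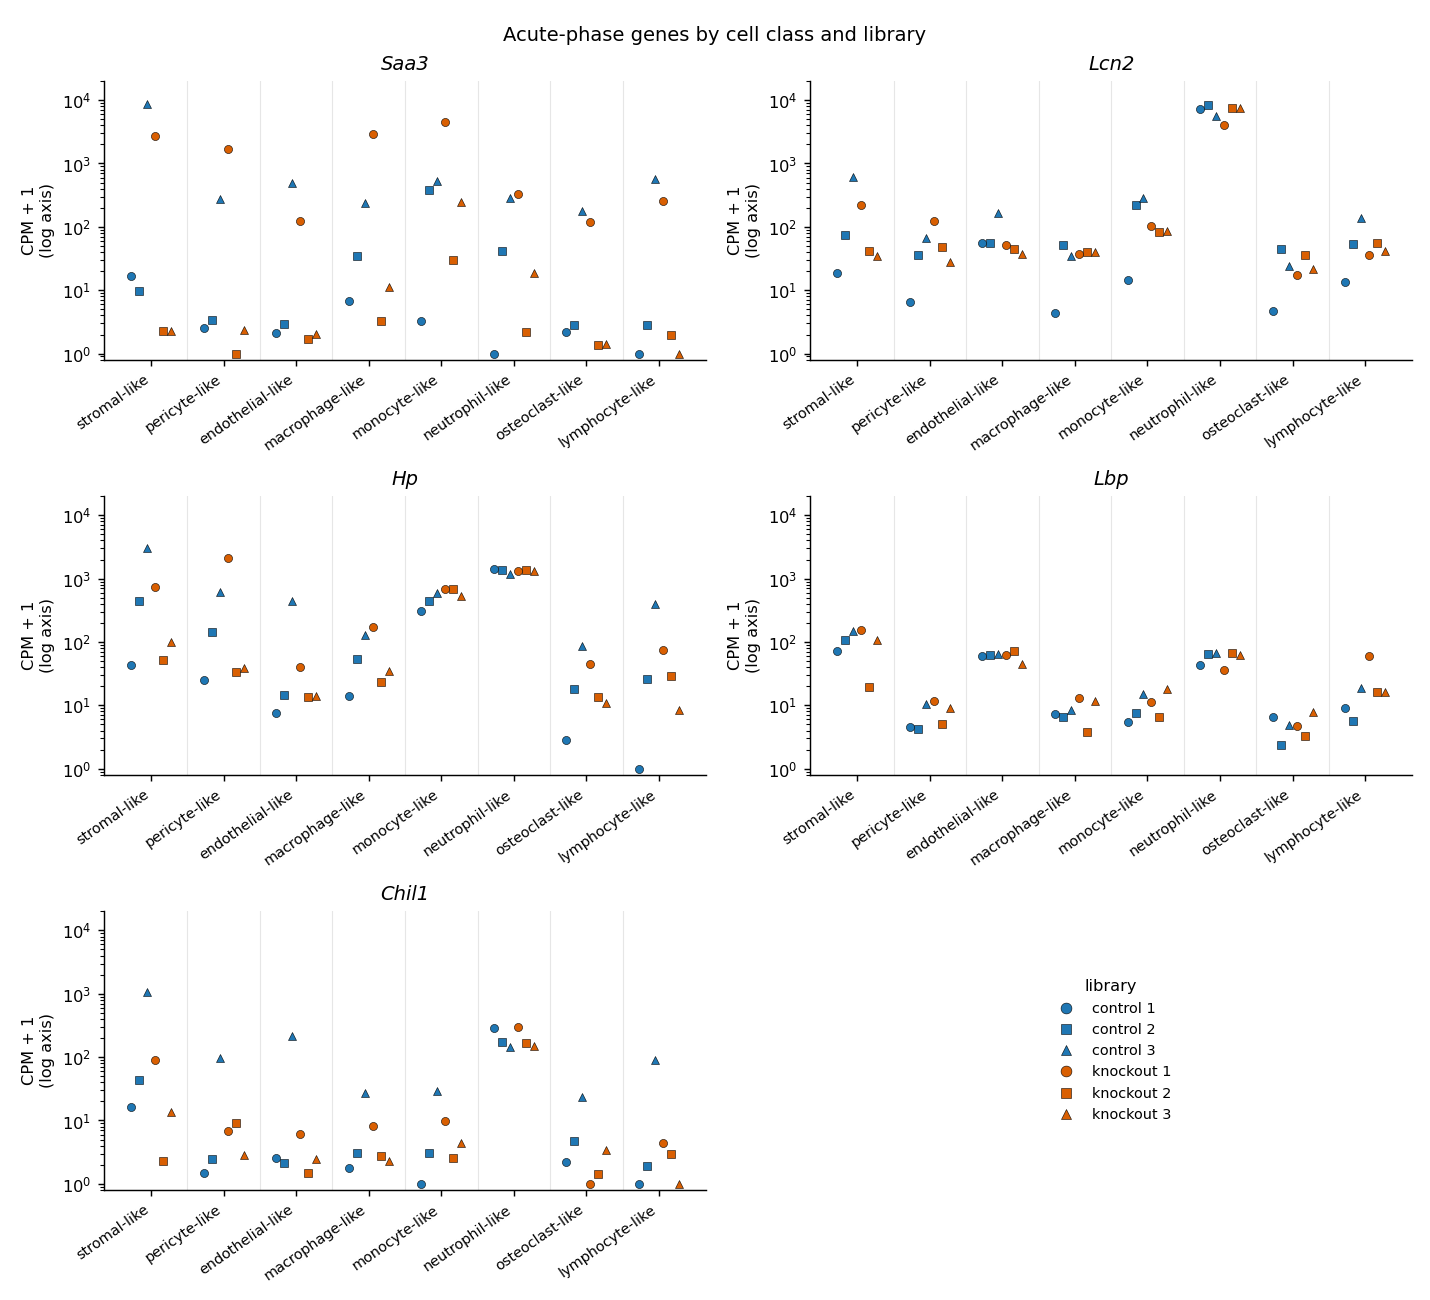
CPM plus 1 on a log axis for each gene (panels) in 8 marker-defined classes (x axis), with one point per library and the genotype label shown by colour. Saa3 runs from 1.28 to 8651 in stromal-like cells, while Lcn2 in neutrophil-like cells stays between 4096 and 8509.

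Because neutrophil RNA can reach other cells, Lcn2 was set against the calprotectin genes S100a8 and S100a9, the most abundant neutrophil transcripts of the granule list. In neutrophil-like cells there were 0.0384, 0.0462 and 0.0307 Lcn2 UMIs per UMI of S100a8 and S100a9 in the control and 0.0326, 0.0293 and 0.0364 in the knockout-labelled libraries. In stromal-like cells the same ratio was 0.2497, 0.0934 and 1.67 in the control and 0.630, 0.0300 and 0.0380 in the knockout-labelled libraries. Thus in knockout libraries 2 and 3 the stromal ratio lay within the neutrophil range, and in the other 4 libraries it was above it. In the HTC-like cluster led by Mmp3, F13a1 and Spp1 the ratio was 18.7 in control library 3, 19.3 in knockout library 1 and 1.61 in control library 2, and it was 0.0419 and 0.0431 in knockout libraries 2 and 3. Lymphocyte-like cells, which should lack Lcn2, had ratios of 0.0256 to 0.170. All 13 granule and calprotectin genes together summed to 119, 1031 and 532 CPM in stromal-like cells of the control and 463, 2085 and 1202 in those of the knockout-labelled libraries, against 142328 to 319079 in neutrophil-like cells. A stromal cluster of 460 cells led by Bglap and S100a8 met the rule for osteoblast-like markers, but the neutrophil genes S100a8, S100a9 and Retnlg and the osteoclast gene Acp5 were among its 10 leading genes, so it is called by those genes here. It held 158 CPM of granule transcripts in control library 1 and 3917 to 11609 in the other 5 libraries, where it was above every other stromal cluster, and its Lcn2 reached 1811 in control library 3. The part of neutrophil RNA or doublets in this cluster was not tested. With it left out, chosen after seeing the data, the genotype values in stromal-like cells were -1.88 for Saa3, -1.40 for Lcn2, -2.06 for Hp, -0.18 for Lbp and -3.52 for Chil1 on the log2 scale, with 0 genes called.

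**Figure D2:**
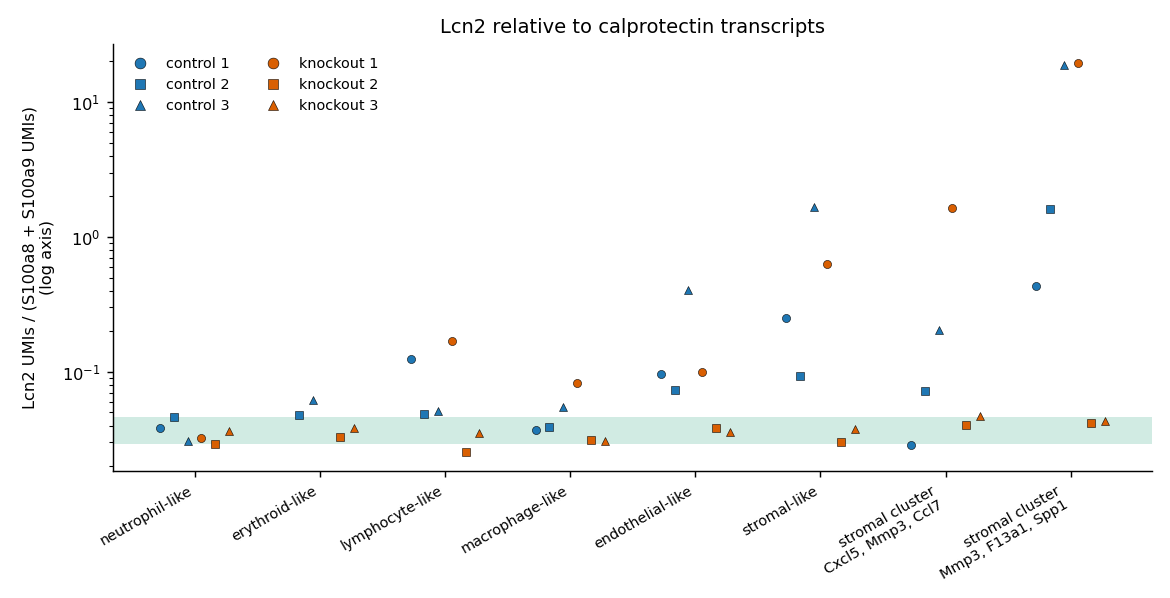
Lcn2 UMIs per UMI of S100a8 and S100a9 on a log axis, by class or cluster (x axis), with one point per library. The band marks the range of neutrophil-like cells, 0.0293 to 0.0462, and the HTC-like cluster led by Mmp3, F13a1 and Spp1 reaches 19.3.

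Hp encodes haptoglobin, which binds free haemoglobin. In neutrophil-like cells it was nearly constant, at 1402, 1385 and 1174 CPM in the control and 1322, 1355 and 1304 in the knockout-labelled libraries. Stromal-like cells had 41.9, 448 and 3031 in the control and 746, 51.0 and 100.1 in the knockout-labelled libraries. Only control library 3 had more Hp in stromal-like than in neutrophil-like cells, and the genotype groups overlapped in both classes. Monocyte-like cells also carried Hp steadily, at 307 to 686, unlike macrophage-like cells at 13.2 to 169. Pericyte-like cells, contractile cells of the vessel wall, had 24.0, 145 and 623 in the control and 2080, 32.4 and 38.3 in the knockout-labelled libraries, and the highest value rests on 40 cells. By mean the order was neutrophil-like (1324 ± 82.2, n = 6), stromal-like (736 ± 1158), monocyte-like (539 ± 145) and pericyte-like (490.4 ± 812), and the range of each class overlapped with that of its neighbours in this order. Among the stromal classes Hp was spread more widely than Saa3: cells like periosteal stem cells (PSC-like) had 146, 1077 and 1209 in the control and 824, 114 and 250.1 in the knockout-labelled libraries.

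Lbp encodes the lipopolysaccharide-binding protein, which hands bacterial lipopolysaccharide to CD14 and TLR4. It was the evenest member in stromal-like cells, at 72.2, 107 and 146 CPM in the control and 155, 18.8 and 106 in the knockout-labelled libraries. Only knockout library 2 was low, with 8.23-fold from the lowest to the highest library against 6733-fold for Saa3, 841-fold for Chil1, 72.4-fold for Hp and 35.2-fold for Lcn2. Endothelial-like cells carried it at 44.1 to 70.2 and neutrophil-like cells at 34.5 to 67.2, and the order stromal-like (101 ± 50.3, n = 6), endothelial-like (59.8 ± 8.61) and neutrophil-like (55.8 ± 13.9) did not exceed the spread. Among neutrophil clusters Lbp was at 85.8 to 105 in the immature one led by Camp and at 2.84 to 16.2 in the mature one, with no overlap. Its highest mean stromal level was in mesenchymal stem cell (MSC)-like cells that express Clec3b, Dpt and Pi16, at 339, 405 and 137 in the control and 761, 487 and 628 in the knockout-labelled libraries. All 3 values of the libraries labelled knockout were above those of the control there, over 16 to 94 cells per library, and the test is given below. The share of all genes that separate in this way was not counted, so the separation is no result about Lbp. In control library 3, however, Lbp was higher in chondrocyte-like cells (251) and in the HTC-like cluster described next (707) than in MSC-like cells (137). No other member was highest by mean in MSC-like cells.

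Chil1 encodes a chitinase-like lectin without chitinase activity, the mouse counterpart of human YKL-40. It had the same mean in stromal-like (203 ± 419.8, n = 6) and neutrophil-like cells (203 ± 72.0) but a different spread. Neutrophil-like cells had 286, 169.5 and 143 CPM in the control and 303, 169 and 147 in the knockout-labelled libraries, and stromal-like cells had 15.4, 42.5 and 1058 in the control and 89.2, 1.26 and 12.8 in the knockout-labelled libraries. Stromal Chil1 was thus above neutrophil Chil1 in control library 3 alone. Other classes had little: macrophage-like cells had 0.757 to 25.8 and monocyte-like cells 0 to 28.3. Chil1 in mature and intermediate neutrophil clusters was 163 to 582, and in the immature cluster 49.7 to 102. In endothelial-like cells of control library 3 Chil1 was at 213 CPM, but at 23.7 without 2 cells that held 589 and 563 of its UMIs and that also held 1151 and 467 UMIs of Saa3. Without these cells endothelial Saa3 there was 228 instead of 492, Hp 116 instead of 447 and Lcn2 33.5 instead of 167.

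Within the stroma the members were concentrated in few cells. In control library 3, which held 85.7% of all stromal Chil1 UMIs and 72.5% of those of Saa3, the 1% of stromal-like cells with the most UMIs of a gene held 53.2% of its stromal UMIs for Lcn2, 47.9% for Chil1, 28.0% for Hp, 27.1% for Lbp and 16.4% for Saa3. In knockout library 1 these shares were 66.0%, 81.2%, 44.4%, 28.6% and 43.5% in the same order. Over all 6 libraries they ran from 15.3% to 48.3% for Lbp and from 16.4% to 100% for Saa3, where few UMIs in a library also raise the share. In control library 3 and knockout library 1 a pair of clusters led by the stromelysin gene Mmp3 held 84.2% and 64.7% of stromal Saa3, 88.3% and 56.2% of Lcn2, 77.4% and 54.0% of Hp, 88.9% and 58.4% of Chil1, and 57.7% and 28.8% of Lbp. In the other 4 libraries they held 4.26% to 46.8% of Saa3, 2.21% to 30.3% of Lcn2, 3.01% to 7.54% of Hp, 2.09% to 28.5% of Chil1 and 2.12% to 8.03% of Lbp. The fibroblast-like cluster led by Cxcl5, Mmp3 and Ccl7 had 45, 40 and 728 cells in the control and 154, 78 and 68 in the knockout-labelled libraries, which is 23.3% of stromal-like cells in control library 3, 6.73% in knockout library 1 and 1.41% to 2.48% in the others. The HTC-like cluster led by Mmp3, F13a1 and Spp1 had 28, 30 and 294 cells in the control and 30, 70 and 121 in the knockout-labelled libraries. It met the rule for HTC-like markers with 4 markers, and Spp1 and Mmp13 were among its 10 leading genes. Col10a1 and Ihh were not, unlike in the other HTC-like cluster, which met 7 markers, so the name stands for these markers only.

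These clusters differed in which members they carried. In the fibroblast-like cluster Saa3 was at 217, 1.77 and 17162 CPM in the control and 9014, 0.876 and 15.6 in the knockout-labelled libraries, and Hp was at 28.8, 378 and 2329 and at 1898, 36.8 and 334. Lcn2 (1.73 to 249), Lbp (6.13 to 150.4) and Chil1 (0 to 20.3) stayed low there. In the HTC-like cluster all 5 were high in the same libraries. Saa3 was at 2.16, 183 and 12778 in the control and 9818, 1.09 and 8.71 in the knockout-labelled libraries. Lcn2 was at 18.4, 985 and 4891 and at 2904, 34.8 and 21.8. Chil1 was at 33.5, 555 and 8661 and at 1763, 2.17 and 6.53. Control library 2, whose stroma as a whole had Saa3 at only 8.81, was the third highest for each of them in this cluster. Hp followed with 16.2, 772 and 14351 in the control and 3369, 104 and 57.5 in the knockout-labelled libraries, and Lbp with 47.6, 344 and 707 and with 722, 11.96 and 74.9.

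The split between the clusters was clearest in the libraries with most of these transcripts. In control library 3 the fibroblast-like cluster held 68.3% of stromal Saa3, and the HTC-like cluster held 85.1% of stromal Lcn2, 88.2% of Chil1, 52.0% of Lbp and 51.0% of Hp. In knockout library 1 the fibroblast-like cluster held 54.5% of Saa3 and 41.4% of Hp, and the HTC-like cluster held 55.4% of Chil1 and 37.5% of Lcn2. Elsewhere the split held at most in part. In control library 2 the HTC-like cluster had 44.7% of Saa3 against 0.526% in the fibroblast-like cluster. For Lcn2 and Chil1 the shares there were 28.7% and 28.1% against 1.63% and 0.327%. Saa3 was found in only 6.67% of 30 cells of the HTC-like cluster of control library 2 when cells were compared at one depth. The share and level of Saa3 in that cluster of control library 2 may thus rest on very few cells. In control library 1 the fibroblast-like cluster had 46.5% of Saa3 against 0.248% in the HTC-like cluster. With cells compared at one depth, as described below, Saa3 was found there in only 2.27% of 44 cells of the fibroblast-like cluster. This share and the level of Saa3 in that cluster of control library 1 may thus rest on very few cells. In control library 1 and knockout libraries 2 and 3 the HTC-like cluster had 1.87%, 2.19% and 2.46% of Lcn2. An unnamed stromal-like cluster of 3467 cells with few UMIs (median 765) had Lyz2, Fabp4, Apoe, S100a8 and S100a9 among its 10 leading genes. It was left unnamed because another class had more markers among these, and the part of RNA from other cells was not tested. Saa3 in this cluster was at 15748 in control library 3 and 2007 in knockout library 1 and at most 4.72 elsewhere. Chondrocyte-like cells, the stromal class with most cells (4966), had less: Saa3 reached 757 and 217 in control library 3 and knockout library 1, Chil1 367 in control library 3 and Lbp 251. Cells of the fibroblast-like and HTC-like clusters had a median of 17590 and 15055 UMIs against 9939.5 in all stromal-like cells, and the part of remaining doublets was not tested.

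**Figure D3:**
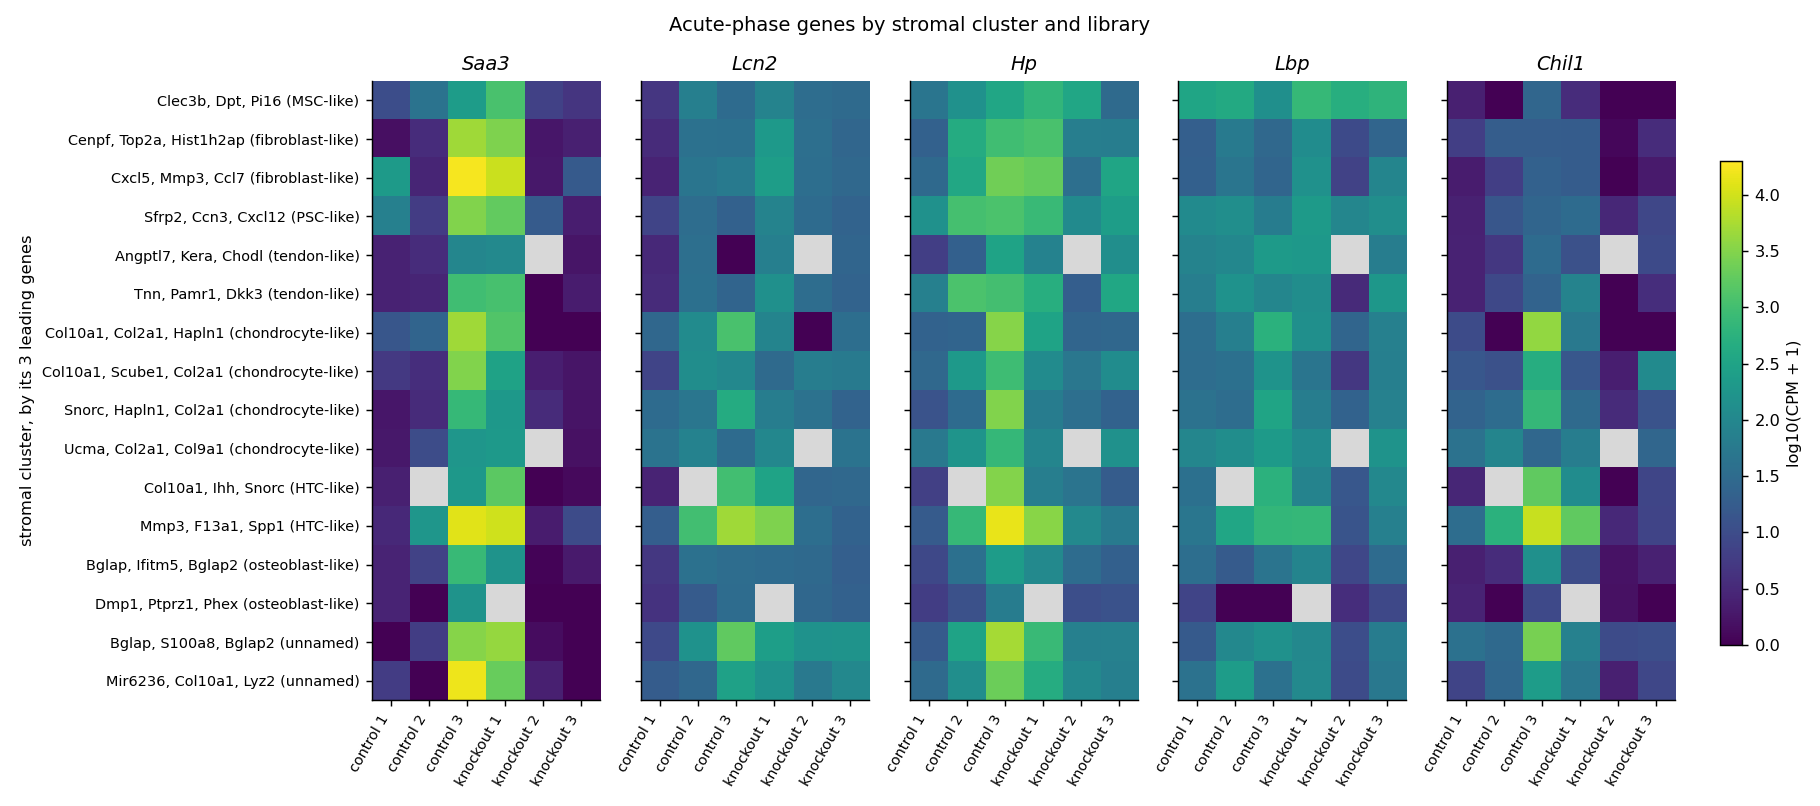
Heat map of log10(CPM + 1) for each gene and stromal cluster (rows) in each library (columns), grey where a library has under 10 cells. The cluster led by Mmp3, F13a1 and Spp1 is bright for all 5 genes in control library 3 and knockout library 1, and that led by Cxcl5 and Mmp3 for Saa3 and Hp.

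To compare cells at one depth, each was thinned to 1000 UMIs, which left out 3504 stromal-like and 453 neutrophil-like cells. With all libraries pooled, a Saa3 UMI was then found in 67.7% of cells of the fibroblast-like cluster (78.9% before thinning), in 29.0% of the HTC-like cluster (52.0%) and in 8.52% of lymphocyte-like cells (16.2%). By library the share in the fibroblast-like cluster was 2.27%, 0% and 88.7% in the control and 68.8%, 0% and 0% in the knockout-labelled libraries. The libraries at 0% had 40 to 78 such cells. Lcn2 was found in 67.7% of neutrophil-like cells (73.1%), in 34.1% of the HTC-like cluster (57.2%) and in 4.11% of lymphocyte-like cells (13.5%). By library its share in the HTC-like cluster was 0%, 33.3% and 58.4% in the control and 26.7%, 4.29% and 2.48% in the knockout-labelled libraries. At least 3 of the 5 genes were found together in 35.3% of cells of the HTC-like cluster, 5.94% of the fibroblast-like cluster, 15.1% of neutrophil-like cells, 2.91% of all stromal-like cells and 0.48% of lymphocyte-like cells. In the HTC-like cluster this share was 63.8% in control library 3, 30% in knockout library 1, 20% in control library 2 and 0 in the other 3, where 28 to 121 cells allow a share of up to 2.48% to 10.7%. All 5 genes at once were found in 7.52% of its cells and in 0.04% of neutrophil-like cells. The median depths before thinning were 15055 UMIs in the HTC-like cluster, 2482 in neutrophil-like and 2488.5 in lymphocyte-like cells.

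The source of each transcript in the whole callus therefore changed with the library. Stromal-like cells held 96.7%, 9.24% and 96.6% of Saa3 UMIs in the control and 86.2%, 21.3% and 17.1% in the knockout-labelled libraries. In control library 2 and knockout libraries 2 and 3 monocyte-like cells held the most, at 63.2%, 51.1% and 47.6%. Those libraries had 2056, 221 and 456 Saa3 UMIs in all and 767, 1021 and 148 monocyte-like cells. Saa3 was scarce in control library 1 too, with 836 UMIs, but that library held only 34 monocyte-like cells. For Lcn2 the stromal share was 25.2%, 2.17% and 52.5% in the control and 62.2%, 3.55% and 6.81% in the knockout-labelled libraries, and the neutrophil share was 67.0%, 94.4% and 41.5% and then 34.7%, 91.5% and 89.9%. Stroma was the larger source of Lcn2 in control library 3 and knockout library 1 alone. For Hp the stromal share was 73.2%, 39.7%, 89.1%, 86.6%, 14.3% and 50.9% in the same order, and the neutrophil share was 15.8%, 46.5%, 3.03%, 4.53%, 52.8% and 39.5%. For Chil1 the stromal share was 88.1%, 38.8%, 93.4%, 89.7%, 4.81% and 57.2%, and the neutrophil share was 10.6%, 58.7%, 1.11%, 8.99%, 89.7% and 39.3%. Neutrophil-like cells were the larger source of both in control library 2 and knockout library 2. Lbp came from stromal-like cells at 91.9%, 55.7%, 85.6%, 96.3%, 36.2% and 88.0%, and endothelial-like cells held 28.3% in control library 2 and 36.3% in knockout library 2. These shares also move with how many cells of each class a library holds, with doublet removal and with which clusters are named. The unnamed cluster of 1435 cells, 730 of them of knockout library 2, met 11 stromal markers. Counted as stromal-like, it brought the stromal share in knockout library 2 to 21.9% for Hp and 26.7% for Saa3. Without doublet removal, the cluster led by Cxcl5 and Mmp3 met 11 stromal markers but was left unnamed. A marker of another class was among its 10 leading genes and no stromal marker was. Counted without it, the stromal share of Saa3 was 50.6%, 12.8% and 21.0% in the control and 23.2%, 20.3% and 20.2% in knockout-labelled libraries. That of Lcn2 in knockout library 1 was then 37.7%, and that of Hp came to 57.4% (control library 3) and 33.1% (knockout library 1). Without integration of the libraries, stromal-like cells held 52.5% of Saa3 in control library 1.

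**Figure D4:**
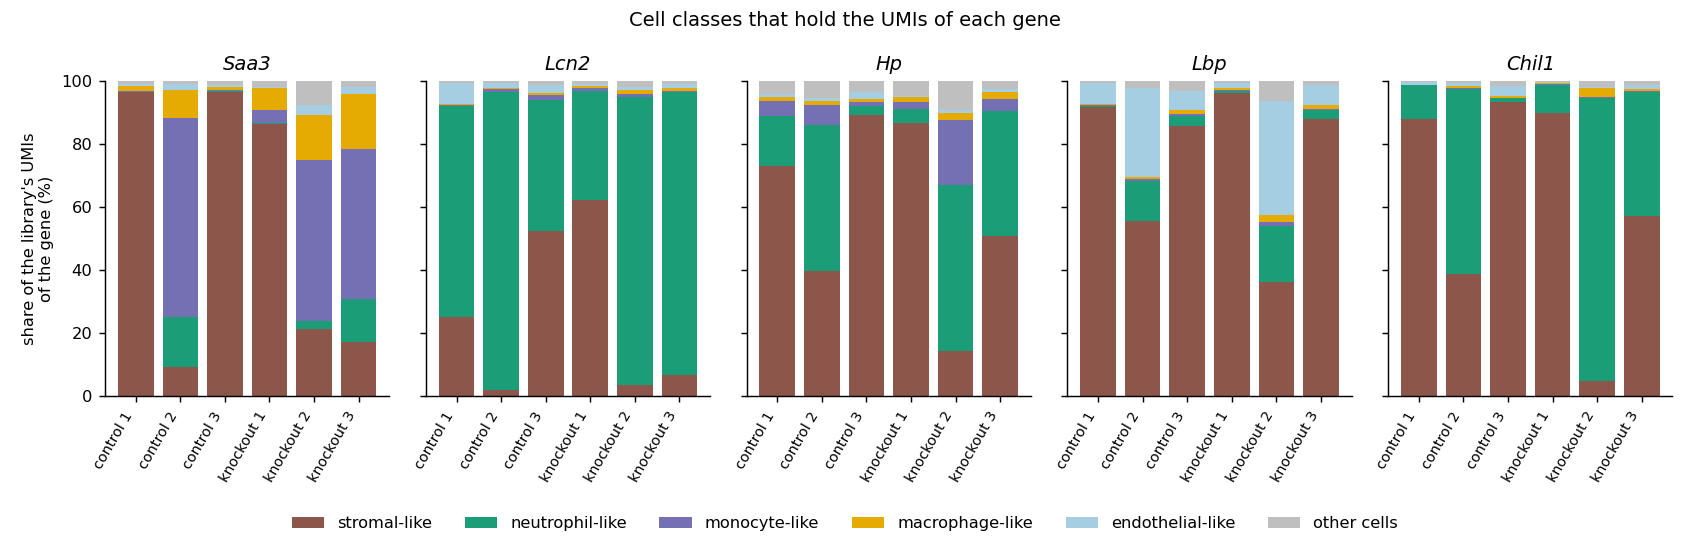
Stacked bars of the percentage of each gene's UMIs (y axis) that lie in stromal-like, neutrophil-like, monocyte-like, macrophage-like, endothelial-like and other cells, one bar per library. Stromal-like cells hold 86.2% to 96.7% of Saa3 in control libraries 1 and 3 and knockout library 1 and at most 21.3% in the other 3.

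The genotype labels did not separate the stromal shares. The mean share in libraries labelled knockout minus that in control libraries was -26.0 percentage points for Saa3 (41.5% ± 38.8 against 67.5% ± 50.5, SD, n = 3 each, two-sided exact permutation test, p = 0.6). It was -2.42 points for Lcn2 (exact p = 1), -16.7 for Hp (exact p = 0.6), -4.25 for Lbp (exact p = 0.9) and -22.9 for Chil1 (exact p = 0.6). Adjusted over these 5 comparisons every p was 1, and with 3 libraries per group the smallest p that the test can give is 0.1. The direction for Lcn2 turned without control library 3 (10.5 points) and without knockout library 2 (7.89) or 3 (6.26), and that for Lbp without control library 1 (2.82) or knockout library 2 (14.4). For Hp and Chil1 it turned without knockout library 2, at 1.40 and 0.04 points.

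No member passed the test between genotype labels in stromal-like cells (edgeR quasi-likelihood test, Benjamini-Hochberg adjusted p = 1.0 for each, 3 libraries per group). Of all 18021 genes tested 0% passed, while 328 had an unadjusted p under 0.05, and DESeq2 also called 0. The log2 fold changes, knockout label over control, were -1.85 for Saa3 (SE 2.96), -1.36 for Lcn2 (SE 1.24), -2.07 for Hp (SE 1.47), -0.20 for Lbp (SE 0.64) and -3.55 for Chil1 (SE 1.86). Within 2 SE these allow from -7.76 to 4.06 for Saa3 and from -1.49 to 1.09 for Lbp, so differences in either direction remain possible. A range of 2 SE is narrower than the test implies: for Chil1 in endothelial-like cells it was -10.6 to -0.22 at an unadjusted p of 0.0899 (edgeR). Control library 3 set the direction: without it the values were 6.16 for Saa3, 1.07 for Lcn2, 0.24 for Hp, 0.12 for Lbp and 0.21 for Chil1, and Lbp also turned without knockout library 2 (0.27). Without knockout library 1 Saa3 was at -10.99, still with no call. Without knockout library 3, the library that did not match in sex, the values were -1.27 for Saa3, -0.98 for Lcn2, -1.69 for Hp, -0.40 for Lbp and -3.19 for Chil1, and 0 genes were called. With the fibroblast-like and HTC-like clusters left out the values were -1.19 for Saa3, -0.06 for Lcn2, -1.63 for Hp, -0.09 for Lbp and -2.15 for Chil1. Same-numbered libraries went opposite ways for Saa3, with a log2 ratio of 7.42 for number 1, -2.78 for number 2 and -12.70 for number 3.

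In neutrophil-like cells no member passed the test either (edgeR, adjusted p = 1.0 for each). Of 10782 genes tested 0% passed, and 253 had an unadjusted p under 0.05. Lcn2 had a log2 fold change of 0.00 (SE 0.51), Hp of 0.15 (SE 0.40), Lbp of 0.06 (SE 0.40), Chil1 of 0.17 (SE 0.40) and Saa3 of 0.02 (SE 1.55). Within 2 SE the values for Hp, Lbp and Chil1 lie between -0.75 and 0.96. With the replicate number as a block the values were -2.27 for Saa3 and -0.06 for Lcn2, no member was called, and 1 gene was called, the metallothionein gene Mt3 (log2 fold change 5.91, SE 0.47, adjusted p = 0.0179). DESeq2 called 4 genes, Mt3, Ptgis, C1qb and BC100530, none a member. The direction of Saa3 turned without control library 1 (-0.51) or 2 (-0.36) or knockout library 1 (-3.42), and that of Lcn2, Lbp and Chil1 turned in some of the leave-one-out fits within -0.20 to 0.46.

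The other classes tested were macrophage-, monocyte-, endothelial-, chondrocyte-, HTC-, osteoblast-, fibroblast-, MSC-, PSC- and tendon-like cells and both Mmp3 clusters. In each of these 12 comparisons 0% of genes were called by edgeR, with 156 to 770 of 7788 to 14497 genes at an unadjusted p under 0.05. Over all 14 comparisons 67 tests of a member were run, of which 0 passed the adjusted threshold (smallest adjusted p = 0.784) and 3 had an unadjusted p under 0.05. Lbp in MSC-like cells was 1.12 on the log2 scale higher in the libraries labelled knockout (SE 0.40, unadjusted p = 0.0137 and adjusted p = 1.0 in edgeR). In that class 176 of 7788 genes had an unadjusted p under 0.05. Chil1 in chondrocyte-like cells was at -2.57 (SE 1.11, unadjusted p = 0.0497, adjusted p = 1.0), with 30.5, 61.4 and 367 CPM in the control and 43.7, 1.63 and 23.4 in the knockout-labelled libraries, so that the groups overlapped. Lcn2 in endothelial-like cells was at -1.05 (SE 0.45, unadjusted p = 0.0498, adjusted p = 0.784), with 54.2, 54.5 and 167 against 50.4, 43.8 and 36.8. Without the 2 cells named above the value of control library 3 was 33.5, and the groups then overlapped. In the fibroblast-like cluster Saa3 had a log2 fold change of -1.11 (SE 3.42) and Hp of -0.41, and in the HTC-like cluster the values ran from -2.61 for Chil1 to -0.59 for Lbp. Osteoblast-like cells include the cluster led by Bglap and S100a8, and 0 genes were called there without it. Chil1 had too few UMIs to test in monocyte-like and MSC-like cells and in the fibroblast-like cluster.

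**Figure D5:**
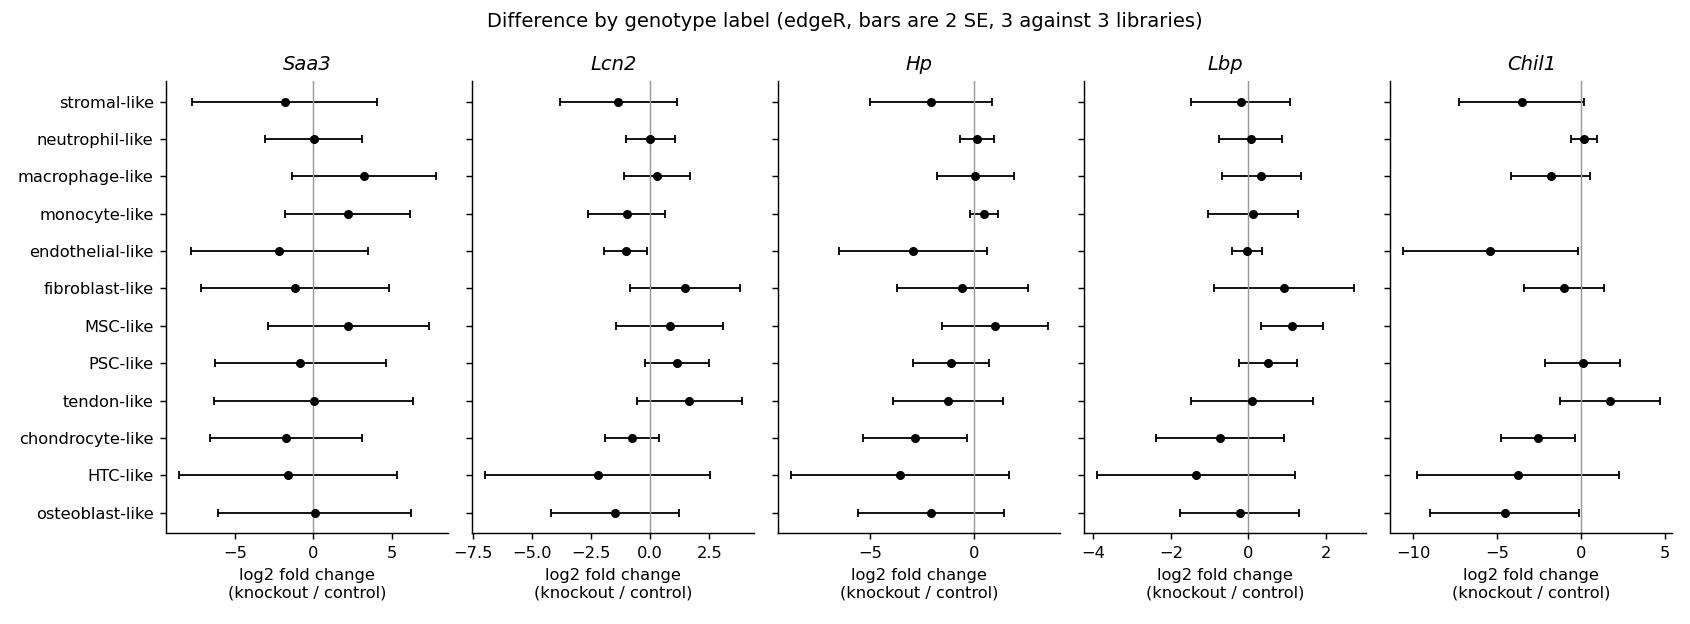
Log2 fold change between genotype labels (knockout over control, edgeR) for each gene in each class, with bars of 2 SE. In stromal-like cells the bars cross 0 for every gene, from -7.76 to 4.06 for Saa3 while in neutrophil-like cells they run from -1.03 to 1.03 for Lcn2.

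The other genes of the acute-phase programme in stromal-like cells were described by fixed lists, in which 0 genes were called in either direction. For each list the share whose highest 2 libraries were control library 3 and knockout library 1, as for all 5 members, was counted, and it was 9.08% over all genes tested. Members and lists were chosen with earlier results of these data known, so a share above that of all genes is a description and no test. Among 32 listed acute-phase proteins 20 were tested, with a median log2 fold change of -0.16 against 0.00 for all genes, and 12 of the 20 (60%) had the same highest pair. Slpi, a protease inhibitor of mucosal surfaces, was the most abundant, at 206, 384 and 636 CPM in the control and 265, 45.0 and 290.0 in the knockout-labelled libraries. Serpina3n, another protease inhibitor, was at 34.1, 229 and 46.8 and at 561, 2.30 and 8.23, and neither it nor Slpi had that highest pair. Serping1, an inhibitor of the complement protease C1, did have that pair and varied less (71.1 to 319). Crp, Hamp, Orm2, Orm3 and the 3 fibrinogen genes stayed at or under 0.164 CPM in every library and Apcs had no UMI, and these were named because they were the lowest of the list. Other genes best known from liver were higher, with Orm1 at up to 3.26 and Saa2 at up to 31.0, so the list as a whole was not near 0.

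Among the inducing cytokines and receptors, 17 of 20 were tested, with a median of -0.02, and 7 (41.2%) had control library 3 and knockout library 1 highest. The most abundant were receptors: Il6st, the shared signal subunit for IL-6 cytokines, was at 58.0 to 204, Tnfrsf1a, a TNF receptor, at 72.5 to 123.4, Lifr at 40.7 to 190.1 and Il11ra1 at 22.4 to 99.1. Of 20 transcription factors and feedback regulators of NF-kB, STAT3 and C/EBP all were tested, with a median of 0.06, and 8 (40%) had that highest pair. Nfkbia, which holds NF-kB in the cytoplasm and is induced by it, was at 156, 231 and 497 in the control and 315, 162 and 276 in the knockout-labelled libraries. Cebpb was at 56.2, 178 and 268 and at 195, 72.7 and 150.3, whereas Atf3 (42.8 to 595) and Cebpd (73.5 to 256) were highest in other libraries. The spread of these regulators between libraries was far smaller than that of Saa3.

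Of the receptors and partners of the member proteins, 10 of 13 were tested, with a median of 0.19, and 3 (30%) had that pair. Hmox1, which degrades haem, was at 30.7 to 104, Scarb1 at 24.3 to 57.1, Slc22a17, a lipocalin 2 receptor, at 10.1 to 24.9, and Mmp9, whose protein binds lipocalin 2, at 28.7, 19.98 and 40.3 in the control and 61.2, 399 and 105 in the knockout-labelled libraries. Mmp9 is in the neutrophil granule list as well. All 13 genes of that list had values above 0, with a median of 1.02 and 0 called, and none had control library 3 and knockout library 1 as its highest pair: S100a8 was at 33.2, 374 and 180 in the control and 147, 716 and 433 in the knockout-labelled libraries. Camp (3.77 to 124) and S100a9 (37.3 to 612) were alike in this. Of the chitinase-like family only Chil3 (0.796 to 24.8) and Chit1 (0 to 4.47) had UMIs, and neither had that pair. In the inflammatory stromal list 19 of 20 were tested, with a median of -0.43, and 15 (78.9%) had that pair. This list includes Cxcl5, Mmp3 and Ccl7, which lead the fibroblast-like cluster that is largest in control library 3 and knockout library 1. Mmp3 was at 5.05, 42.5 and 939 in the control and 691, 1.64 and 2.15 in the knockout-labelled libraries. Cxcl1, a neutrophil chemoattractant, was at 19.8, 117 and 510 and at 281, 3.77 and 94.0. The collagenase gene Mmp13 was at 661, 649 and 2279 and at 2208, 1411 and 894, and Ptgs2, which makes prostaglandins, was between 18.0 and 285.

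The genes whose pattern was most like each member were found by Pearson correlation of log2(CPM + 1) over 88 points of stromal cluster and library, as a description, since points share libraries and depth. Unlike the members, the inflammatory stromal list, with Mmp3 and Cxcl5, was not kept out of the clustering that made these points. The members were also chosen from inflammatory stromal clusters, so likeness to such genes was partly built in. For Saa3 the genes most alike were Mmp3 (r = 0.88), the chemokine gene Cxcl5 (0.82) and Saa1 (0.81). For Lcn2 they were Saa1 (0.75), Chil1 (0.71) and Hp (0.70), and for Hp they were Mmp3 (0.76), Saa3 (0.75) and the complement gene C3 (0.73). For Chil1 they were Saa1 (0.77), Lcn2 (0.71) and Slpi (0.69). For Lbp they were Bmper, Islr and F3 (each 0.76), and neither Lbp nor Saa3 had another member among its 3. Saa1, which was at 152 CPM in stromal-like cells of control library 3, 46.8 in knockout library 1 and at most 0.325 elsewhere, has a near-identical copy in Saa2, so its counts are uncertain. It was at 1236 and 1066 in the HTC-like cluster of these libraries and at 12.004 and 18.0 in the fibroblast-like cluster, the same contrast between the clusters that Lcn2 and Chil1 had. Cxcl5 had the opposite contrast, with 6.103 and 62.2 in the HTC-like and 1007 and 1550.4 in the fibroblast-like cluster.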

How the data were processed

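Droplet libraries (10x 3′ v3) were made from fracture calluses, 3 per group by the titles in the labels. The deposited values are raw UMI counts per gene and barcode, which the authors made with Cell Ranger against GRCm38, and the file headers give versions 6.1.1 and 6.1.2. The replicates numbered 3 list other genes than the rest, so libraries were joined on 52081 shared gene identifiers. The 5 genes and all gene lists were chosen with earlier results of these data known.

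Cells with at least 500 UMIs, 200 genes and at most 20% mitochondrial UMIs were kept (44698), and the 3046 highest Scrublet scores were removed, 0.8% per 1000 cells of a library. Integration with Seurat 5.3.0 (RPCA) used 2000 variable genes without the members and most lists, and 30 components. The neutrophil granule and inflammatory stromal lists were not among those left out. Leiden clustering (leidenalg 0.10.2, scanpy 1.11.5, 20 neighbours, resolution 0.8) was run on all and then on stromal-like cells. A class name needed 3 markers found in 25% of cells and 2 times the median cluster. A class entered a fit with at least 10 cells in a library.

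UMI counts were summed per class and library, and the sums were compared by the two-sided quasi-likelihood test of edgeR 4.0.16 after filterByExpr and TMM, with p adjusted over all genes and a threshold of 0.05. The SE is the log2 fold change divided by the square root of F. Shares were compared by exact permutation in scipy 1.17.1 over 20 assignments. The edgeR code was tested on simulated data. Limits on counts of 0 are 3 counts and cover counting error only. The labels say that each callus came from a mouse, but the study gives different animal numbers in different places, so p-values measure the spread between libraries. Named genes were the members, up to 4 of each list with the highest mean stromal level, and the 3 genes most like each member. A gene that this rule names is not reported here. Piezo1, Xist and Y genes were checks. Genes that lead clusters, Col1a1, the lowest acute-phase genes, Orm1, Saa2, and genes called in an alternative were named after their values were seen. Same-numbered libraries correlated in their deviations from the group means at 0.34, 0.10 and 0.19 in neutrophil-like cells and at 0.24, -0.11 and -0.19 in stromal-like cells. Libraries of different numbers ran from -0.36 to 0.29 and from -0.18 to 0.32, so these correlations do not show pairs. The main fits used the genotype label only in every class, and the replicate number entered as a block in alternative fits.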

Additional observations from a re-analysis of the deposited data

How the results depend on the processing

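Of the values recomputed under other settings, 378 were unchanged. These were fold changes and share differences that kept direction and side of the threshold, and counts of calls that stayed the same. Another 54 values turned direction without passing the threshold, and 11 counts of called genes moved. No member passed the edgeR or DESeq2 threshold in 253 alternatives in stromal-like cells, neutrophil-like cells and both Mmp3 clusters (smallest adjusted p = 0.41), or in 344 edgeR tests under alternatives in the other classes (smallest adjusted p = 0.238, in fibroblast-like cells without knockout library 1). The cause of the changes was not tested. Only large differences could be seen with 3 libraries per group, and counts of under 10 cells limited rare classes. Clusters of few UMIs, mostly of control library 1 and knockout library 1, limit the levels there. Without doublet removal the cluster led by Cxcl5 and Mmp3 met 11 stromal markers but was left unnamed, outside the stromal-like class. Values in that class were then -2.16 for Saa3, -2.30 for Lcn2, -3.12 for Hp, -0.64 for Lbp and -4.05 for Chil1. Without scaling factors the median of all genes moved from 0.00 to -0.10 in stromal-like and from 0.04 to -0.09 in neutrophil-like cells. The settings that leave out or add stromal clusters, and those within both Mmp3 clusters, were chosen after seeing the data.

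In stromal-like cells the values with 1 library left out ranged from -10.99 to 6.16 for Saa3, -2.54 to 1.07 for Lcn2, -3.83 to 0.24 for Hp, -0.63 to 0.27 for Lbp and -5.61 to 0.21 for Chil1. Without replicate 3 of both groups they were 6.74 for Saa3, 1.44 for Lcn2, 0.61 for Hp and 0.56 for Chil1. In neutrophil-like cells the ranges were -3.42 to 2.08 for Saa3, -0.20 to 0.30 for Lcn2, 0.06 to 0.26 for Hp, -0.20 to 0.34 for Lbp and -0.058 to 0.46 for Chil1, with 0 to 1 genes called. Lcn2 there was -0.030 with no filter on low counts (Saa3 -0.094, 27 genes called), -0.0036 with DESeq2 (4 genes), -0.17 with no scaling factors (Lbp -0.11), -0.31 without replicate 3 of both groups, -0.10 with stricter cell filters, -0.087 with no doublet removal (Saa3 -0.29, Lbp -0.049) and -0.26 at resolution 0.4 (Hp -0.081, Lbp -0.20, Chil1 -0.024).

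With the replicate block, values in neutrophil-like cells were -2.27 for Saa3 and -0.062 for Lcn2 with 1 gene called, and 1 gene was called in MSC-like cells (Eln). The block changed no other call and called no member.

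With 1 library left out, called genes ranged from 0 to 1 in macrophage-, chondrocyte- and fibroblast-like cells and in the cluster led by Cxcl5 and Mmp3, and from 0 to 2 in MSC- and tendon-like cells. The called genes were Igha (macrophage-, chondrocyte- and tendon-like), Igkc (tendon-like), Mmp9 (fibroblast-like), Eln and Crabp2 (MSC-like), Il11 (that cluster) and Mt3 (neutrophil-like). In that cluster the range was -9.60 to 4.84 for Saa3, -0.23 to 2.42 for Lcn2 and -2.38 to 1.91 for Hp. In the cluster led by Mmp3, F13a1 and Spp1 it was -9.62 to 5.19 for Saa3, -6.20 to 1.00 for Lcn2, -6.06 to 1.61 for Hp, -2.995 to 0.52 for Lbp and -9.35 to 1.03 for Chil1. The difference in stromal share ranged from -21.4 to 10.5 points for Lcn2, -34.7 to 1.40 for Hp, -15.6 to 14.4 for Lbp, -42.4 to 0.0400 for Chil1 and -55.1 to -11.4 for Saa3.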
